A study of Mus musculus with 4 samples.

Results

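Nuclear genes encode most subunits of the complexes that carry out oxidative phosphorylation. The genes described here were the rows of the 4 count matrices of adult mouse testis whose symbol begins with NDUFA, NDUFB, NDUFC, NDUFS, NDUFV, UQCR, ATP5 or COX4 to COX8, leaving out symbols that contain -PS. This gave 89 of 25824 symbols. They comprised 38 rows of complex I (NADH dehydrogenase), 8 complex I assembly factors, 8 rows of complex III (cytochrome bc1), 19 rows of complex IV (cytochrome c oxidase) and 16 rows of ATP synthase, and 3 of the 89 (NDUFA1, NDUFB11 and COX7B) lie on the X chromosome. Of them, 3 rows (COX6C2, NDUFA11B and NDUFS6B) are annotated as processed pseudogenes.

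The electron transport chain passes electrons from NADH and succinate to oxygen through complexes I to IV and pumps protons across the inner mitochondrial membrane, and ATP synthase uses the gradient. Male germ cells change their mitochondria during meiosis and spermiogenesis, and they replace some general subunits by isoforms that are found mostly in the testis. COX6B2, COX7B2 and COX8C are such isoforms of complex IV, and their general counterparts are COX6B1, COX7B and COX8A. Leydig cells, the steroid-producing cells between the tubules, depend on mitochondria because the first step of steroid synthesis takes place inside them.

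Single cells from the testes of 2 WT mice (Ctcf wt/wt, replicates 1 and 2) and 2 Ctcf-cKO mice (Stra8-iCre-Ctcf f/Δ, replicates 1 and 3) were profiled, all of strain C56BL/6J as labelled and 15 weeks old, one mouse per library. The Stra8 promoter drives Cre in germ cells that are about to enter meiosis, so somatic cells of the Ctcf-cKO mice keep the floxed allele. After dissociation, 944 barcodes were kept as cells because their total reached at least 3-fold the commonest barcode total of the library. These were 118, 276, 265 and 285 in WT 1, WT 2, Ctcf-cKO 1 and Ctcf-cKO 3, from libraries of 6701235, 4859455, 2652665 and 1593546 counts. The limit was 3282, 1599, 852 and 603 counts in the same order, so barcodes with fewer counts were kept as cells in both Ctcf-cKO libraries. Median counts per kept cell were 12424, 7346.5, 3901 and 2059 in the same order, which is the order used for all lists of 4 values below. Ctcf had 20, 24, 0 and 4 counts in the germ-like cells, or 10.4, 9.04, 0 and 7.79 counts scaled to the class total (CPM). The germ-like cells labelled Ctcf-cKO 3 were thus close to WT 2 and do not bear out their label, though 4 counts are too few to decide it. Counts of calls without this mouse are therefore given below. In late spermatid-like cells Ctcf had 6, 0, 0 and 0 counts, so this class cannot show the deletion. Over all barcodes Ctcf was at 16.4, 10.1, 1.51 and 4.39 CPM, lower in both Ctcf-cKO mice. One barcode was shared between kept cells of 2 libraries. The value 4 was the commonest entry above 0 in Ctcf-cKO 1 (29.97% of entries, against 11.5% in WT 1), so 1 count may not stand for 1 molecule. The intervals given here treat each count as independent and leave out the spread between mice. They cover counting error at most and may be too narrow.

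Cells were clustered without the 89 genes and without the mitochondrially encoded genes, and classes were named from marker genes: 76 spermatocyte-like, 87 early spermatid-like, 231 mid spermatid-like and 183 late spermatid-like cells, and 233 somatic-like cells (Leydig-like, fibroblast-like and macrophage-like). The early spermatid-like class was higher than other cells in 5 of 23 round spermatid markers and in 4 of 25 spermatocyte markers. The clusters of the mid class were higher in 13 and 17 of the 23 round spermatid markers. The name of the early class is thus weakly backed by markers. A further cluster of 134 cells carried both elongating spermatid and Sertoli markers and was left unnamed. The classes are not free of each other's RNA. In spermatocyte-like cells the 14 Leydig markers in the tables summed to 159, 244, 12695 and 10506 CPM, a unit that divides each sum by the total of its class in the mouse, and all 14 were higher in both Ctcf-cKO mice. In late spermatid-like cells they summed to 27.8, 92.5, 4082 and 3734 CPM, with 12 of 14 higher in both Ctcf-cKO mice and LHCGR at 0. The barcodes with under 200 genes, taken as a measure of free RNA, held 495, 366, 5778 and 5788 CPM of the same markers. They were 1367 of 5603, 4392 of 6474, 5592 of 5919 and 6114 of 6407 barcodes. The free RNA is thus taken from a smaller part of the barcodes in the WT libraries. The 2 Leydig-like cells of WT 2 held 364 CPM of Leydig markers against 56448 CPM in the Leydig-like cells of WT 1, so WT 2 is not used for that class. All WT values of Leydig-like cells below thus rest on 7 cells of WT 1. Ctcf-cKO 1 and Ctcf-cKO 3 gave 40 and 55 Leydig-like cells. Mitochondrially encoded genes took a median of 0.00292%, 0.118%, 1.04% and 1.40% of the counts of a cell, so the median WT cell held nearly none of their transcripts. The part of these differences in the results below was not tested.

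The 3 pairs of complex IV isoforms differed between germ and somatic cells. COX6B2 (chr7:4751792-4753094, minus strand, GRCm38) and COX6B1 (chr7:30616861-30626151, minus strand) have 4 exons each in their longest models, COX7B2 (chr5:71442824-71548205, minus strand) and COX7B (chrX:106015700-106022450, plus strand) have 3, and COX8C (chr12:102899316-102900526, plus strand) and COX8A (chr19:7215153-7217616, minus strand) have 2 and 3. The bases before the start of 5 of these genes are printed below, since the members of each pair differ in where they are expressed. They come from RefSeq (GRCm38.p6), run 5′ to 3′ towards the start site and leave out bases inside the annotated gene. No promoter of COX8C was matched. Capitals mark the CCAAT box, read on either strand as CCAAT or ATTGG.
COX6B2 (chr7:4753095-4753344, minus strand): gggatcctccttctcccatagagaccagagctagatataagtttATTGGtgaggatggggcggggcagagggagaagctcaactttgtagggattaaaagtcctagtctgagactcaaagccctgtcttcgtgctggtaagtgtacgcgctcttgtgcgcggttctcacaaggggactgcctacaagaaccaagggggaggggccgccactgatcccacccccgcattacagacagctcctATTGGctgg
COX6B1 (chr7:30626152-30626364, minus strand): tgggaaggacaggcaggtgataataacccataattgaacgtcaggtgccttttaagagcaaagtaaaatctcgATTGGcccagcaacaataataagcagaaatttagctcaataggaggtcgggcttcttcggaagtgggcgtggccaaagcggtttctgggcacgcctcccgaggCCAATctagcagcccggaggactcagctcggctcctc
COX7B2 (chr5:71548206-71548455, minus strand): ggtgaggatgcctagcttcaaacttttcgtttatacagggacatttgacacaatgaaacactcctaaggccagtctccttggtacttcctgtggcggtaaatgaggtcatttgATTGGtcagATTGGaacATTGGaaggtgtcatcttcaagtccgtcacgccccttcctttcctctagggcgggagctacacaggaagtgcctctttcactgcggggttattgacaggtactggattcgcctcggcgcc
COX7B (chrX:106015450-106015699, plus strand): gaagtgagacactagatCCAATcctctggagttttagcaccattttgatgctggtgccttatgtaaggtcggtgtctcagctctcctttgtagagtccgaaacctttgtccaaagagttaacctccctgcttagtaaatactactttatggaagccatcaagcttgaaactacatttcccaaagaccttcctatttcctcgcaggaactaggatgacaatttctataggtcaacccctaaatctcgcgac
COX8A (chr19:7217617-7217866, minus strand): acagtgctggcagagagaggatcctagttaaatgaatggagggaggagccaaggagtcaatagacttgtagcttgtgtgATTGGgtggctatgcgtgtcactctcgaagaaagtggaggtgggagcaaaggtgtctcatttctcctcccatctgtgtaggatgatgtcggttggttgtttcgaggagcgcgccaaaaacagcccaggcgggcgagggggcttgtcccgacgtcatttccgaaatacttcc

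All 5 upstream regions hold at least 1 CCAAT box, with 3 copies in COX7B2 and 2 each in COX6B2 and COX6B1, so the letters do not separate testis from general isoforms. Over the 250 bases before the start, CCAAT was found on either strand in 33 of 75 promoters of the 70 genes matched (44.0%) and in 33.8% of all 32851 promoters. The core of the motif of NRF1, an activator of nuclear genes for respiration, was in 4 of the 75 (ATP5K, COX6A1, NDUFA11 and NDUFAF4; 0.782% of all promoters). The cAMP response element TGACGTCA was in 4 (NDUFA10, NDUFA11, NDUFB2 and UQCRFS1; 1.55% of all), and the core motif of YY1 in 1 (ATP5J; 0.301% of all). None of these 3 motifs was in the windows of the 5 isoform genes.

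In spermatocyte-like cells COX8C stood at 887, 830, 594 and 278 CPM, COX6B2 at 868, 575, 594 and 441 CPM and COX7B2 at 579, 345, 172 and 310 CPM. COX8A stood there at 37.3, 4.04, 44.4 and 81.7 CPM, COX6B1 at 0, 20.2, 111 and 0 CPM and COX7B at 0, 6.06, 11.1 and 32.7 CPM. In each mouse every testis isoform was above its counterpart. The spermatocyte-like class held 6, 32, 21 and 17 cells, so all its WT 1 values, here and below, rest on 6 cells. Because 3′ libraries count the ends of transcripts, levels were not divided by transcript length. In mid spermatid-like cells COX6B2 was at 649, 367, 341 and 611 CPM and COX8C at 652, 269, 263 and 413 CPM, levels that overlap those of the spermatocyte-like class. In late spermatid-like cells COX6B2 was down to 60.6, 83.3, 40.6 and 46.0 CPM, COX8C to 82.1, 74.0, 57.4 and 46.0 CPM and COX7B2 to 26.5, 13.9, 23.7 and 41.4 CPM. All 4 mice were lower there than in the spermatocyte-like class for each of the 3 genes.

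In Leydig-like cells the order was turned for COX6B1 and, in part, for the other pairs. COX6B1 stood at 766 CPM in WT 1, 284 in Ctcf-cKO 1 and 331 in Ctcf-cKO 3, against 132, 120 and 162 CPM of COX6B2. COX8A stood at 502, 116 and 56.2 CPM in these 3 mice, against 0, 57.8 and 187 CPM of COX8C, so the pair kept this order in WT 1 and Ctcf-cKO 1 but not in Ctcf-cKO 3. COX7B was at 26.4, 149 and 169 CPM and COX7B2 at 158, 14.5 and 62.5 CPM, with COX7B higher in the Ctcf-cKO mice and lower in WT 1. The free RNA held 600, 386, 191 and 311 CPM of COX6B2 and 791, 401, 220 and 318 CPM of COX8C. The COX6B2 and COX8C levels in Leydig-like cells lay below those of the free RNA of the same mouse.

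**Figure D1:**
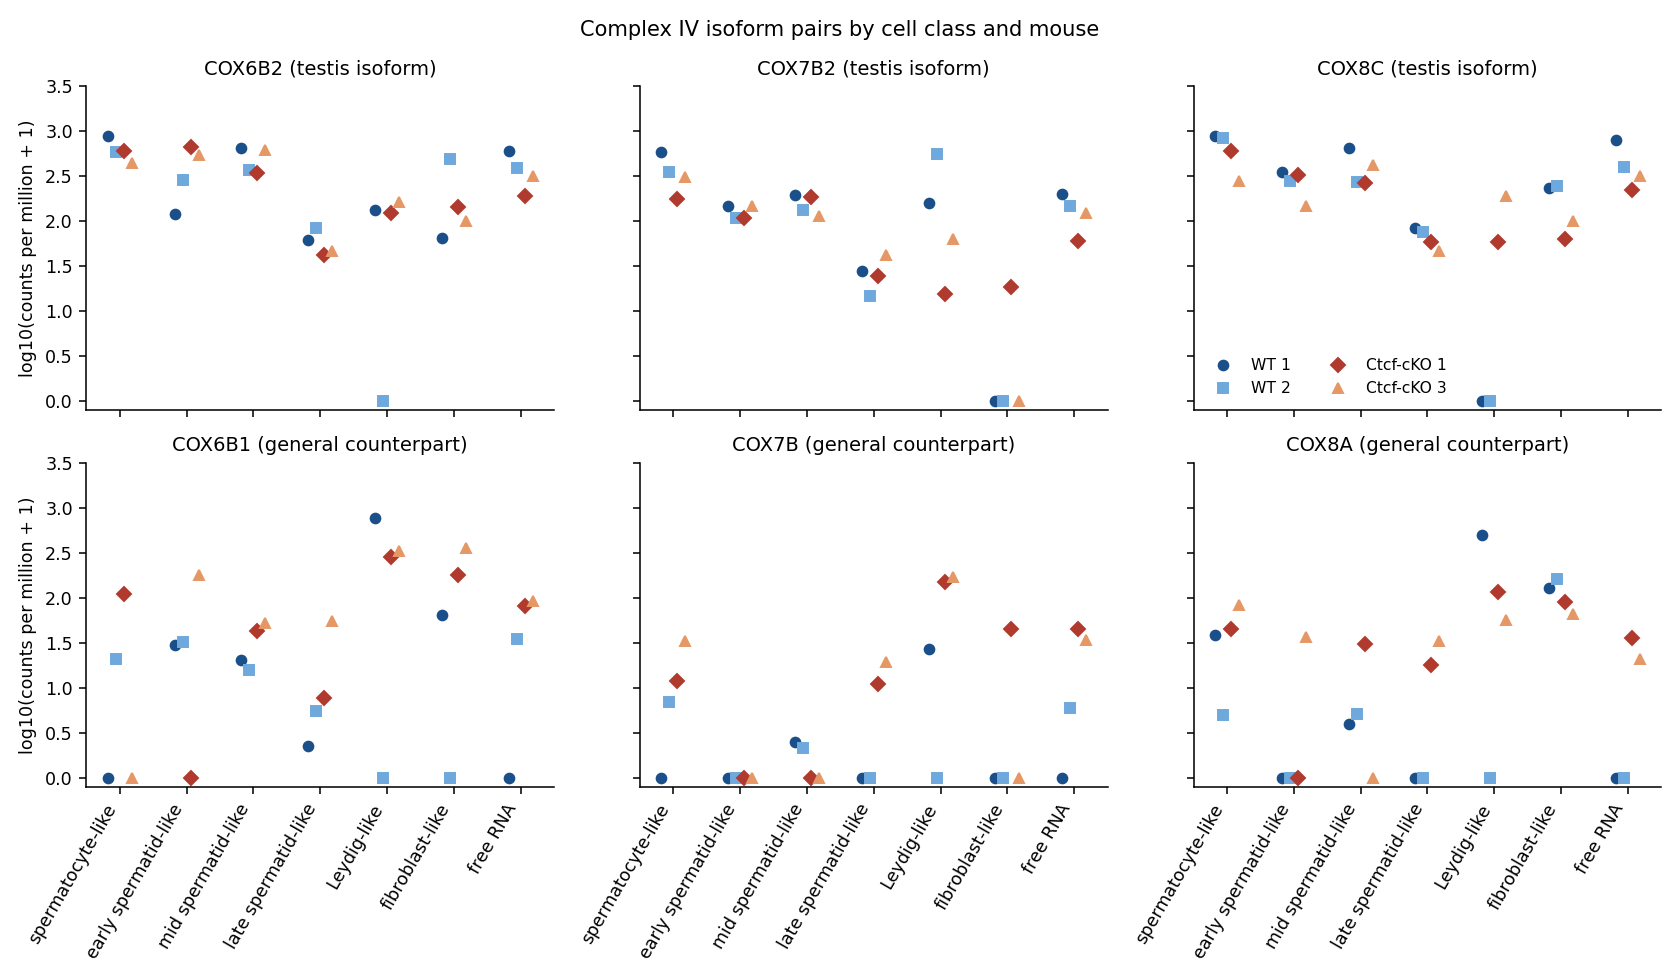
Levels of the 3 testis isoforms of complex IV (top) and their general counterparts (bottom) as log10(CPM + 1) in each class and in free RNA; each point is one mouse, and points at 0 are libraries without a count. COX6B2, COX7B2 and COX8C are above their counterparts in the spermatocyte-like class of every mouse (COX8C 278 to 887 CPM, COX8A 4.04 to 81.7 CPM), and COX6B1 reaches 284 to 766 CPM in the Leydig-like cells of WT 1 and both Ctcf-cKO mice.

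A ratio within a pair does not depend on the scaling of a library. Of the counts of the 3 pairs together, the testis isoforms took 98.4% (exact 95% binomial interval, 96% to 99.6%; 250 of 254), 98.3% (867 of 882), 89.1% (84.8% to 92.5%; 245 of 275) and 90% (63 of 70) in spermatocyte-like cells. In mid spermatid-like cells they took 98.4%, 97.5%, 91.7% and 95.7%. In early spermatid-like cells, with 22 to 131 counts a mouse, they took 95.5%, 95.4%, 100% and 79.3%, and the genotypes overlap. In late spermatid-like cells they took 99.3% (134 of 135) and 97.4% (37 of 38) in WT and 78.3% (63.6% to 89.1%; 36 of 46) and 55.8% (41.3% to 69.5%; 29 of 52) in Ctcf-cKO mice. In the spermatocyte-like, mid and late classes both Ctcf-cKO mice were below both WT mice, and with 2 mice against 2 the smallest p of an exact two-sided permutation test is 0.333. The free RNA moved the same way, with 100% (167 of 167) and 96.0% (552 of 575) in WT against 74.6% (508 of 681) and 83.8% (563 of 672) in Ctcf-cKO mice. In Leydig-like cells the share was 18.3% in WT 1 (11 of 60), 26.0% in Ctcf-cKO 1 (40 of 154) and 42.6% in Ctcf-cKO 3 (66 of 155). The part of free and somatic RNA in the lower shares of the Ctcf-cKO germ-like classes was not tested.

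**Figure D2:**
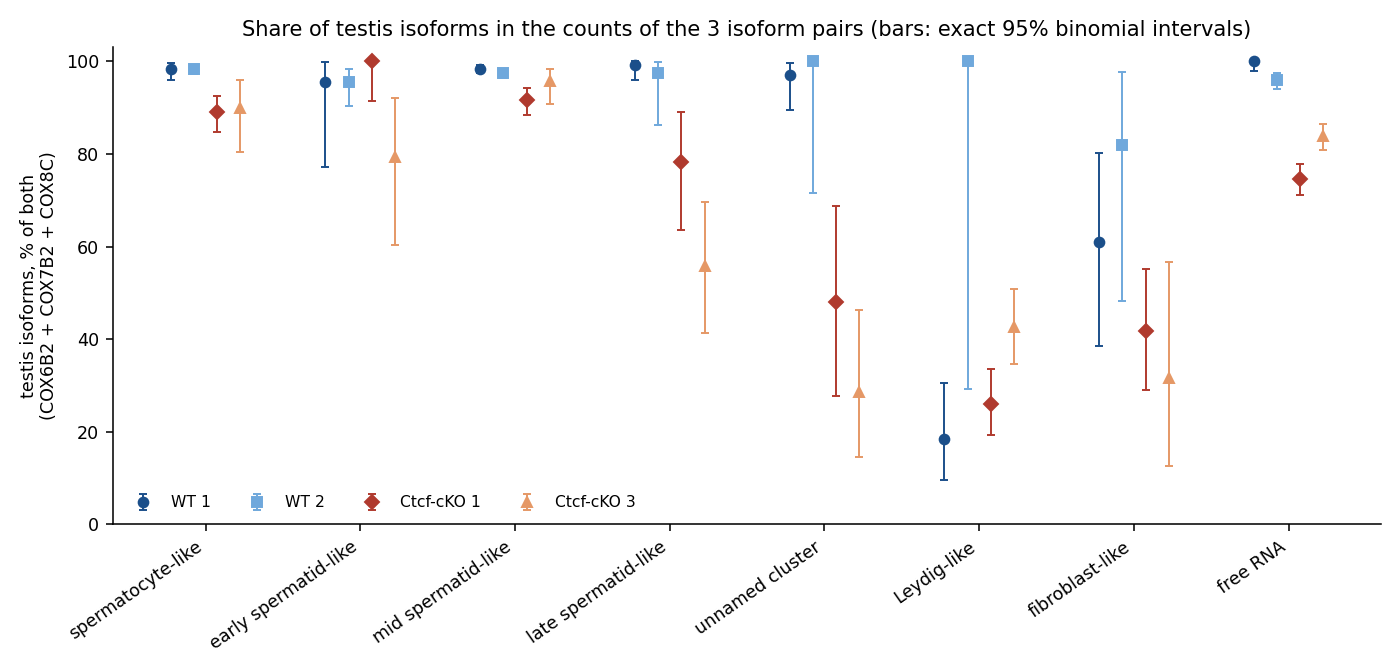
Share of COX6B2, COX7B2 and COX8C in the counts of the 3 isoform pairs, in percent, by class and mouse, with exact 95% binomial intervals. The WT germ-like classes lie between 95.4% and 99.3%, the late spermatid-like cells of the Ctcf-cKO mice at 78.3% and 55.8%, and Leydig-like cells of WT 1 and both Ctcf-cKO mice between 18.3% and 42.6%, while WT 2 had 3 counts in 2 Leydig-like cells.

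The 89 genes were a larger part of the RNA in Leydig-like and spermatocyte-like cells than in spermatids. They made up 2.76% of counts in Leydig-like cells of WT 1 (7 cells), 2.22% in Ctcf-cKO 1 (40 cells) and 1.78% in Ctcf-cKO 3 (55 cells). In spermatocyte-like cells they made up 1.78%, 1.48%, 1.80% and 1.81%, in mid spermatid-like cells 1.09%, 0.918%, 1.12% and 1.16%, and in late spermatid-like cells 0.476%, 0.495%, 0.678% and 0.817%. The free RNA held 1.15%, 0.880%, 0.916% and 0.945%. The order spermatocyte-like, mid, late was kept in every mouse without overlap between these 3 classes. Early spermatid-like cells (8, 44, 17 and 18 cells) gave 0.550%, 0.810%, 1.27% and 1.34%, a range that overlaps both mid and late classes. Classes come from the same cells, so levels across them are a description with no test.

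Levels were lower in late spermatid-like cells for all complexes, but not to the same degree. Complex IV subunits summed to 5498, 4097, 4189 and 4183 CPM in spermatocyte-like cells and to 759, 735, 1071 and 1453 CPM in late spermatid-like cells. ATP synthase subunits summed to 3164, 2825, 4150 and 4019 CPM and to 1277, 1452, 1990 and 2341 CPM. Complex I subunits summed to 5666, 5270, 6700 and 7042 CPM and to 1752, 1818, 2565 and 3123 CPM, and complex III subunits to 2222, 1625, 2122 and 2255 CPM and to between 777 and 916 CPM. In late spermatid-like cells ATP synthase was thus above complex IV in every mouse, while in spermatocyte-like cells complex IV was above ATP synthase in all 4.

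**Figure D3:**
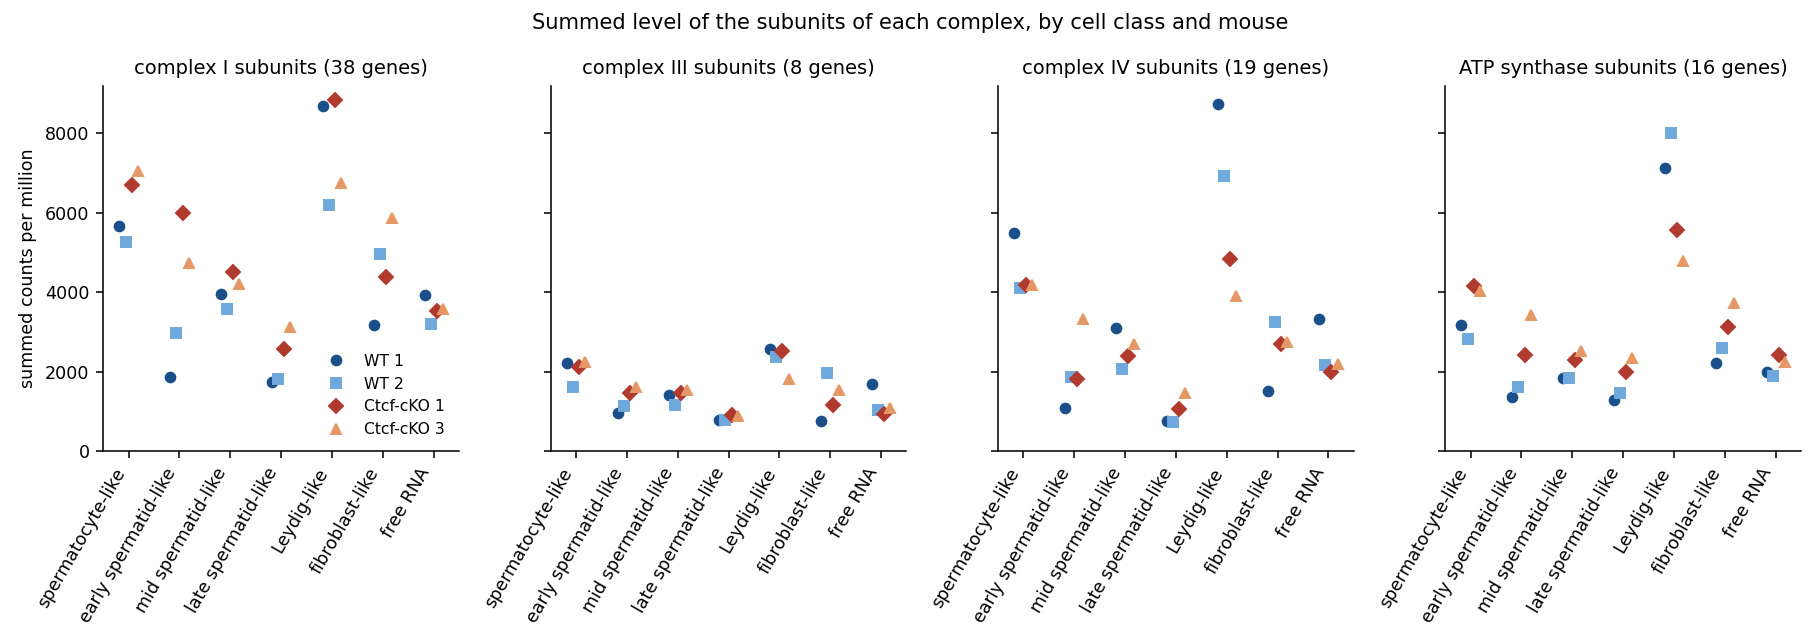
Summed level of the subunits of complexes I, III and IV and of ATP synthase in CPM, by class and in free RNA; each point is one mouse. Sums are lower in late spermatid-like than in spermatocyte-like cells of every mouse, and complex IV goes from 4097 to 5498 CPM down to 735 to 1453 CPM.

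Of the 72 genes with at least 20 counts in every mouse over all kept cells, 54 were lower in late spermatid-like than in spermatocyte-like cells in all 4 mice, where 34.1% of the 4952 genes with this depth were, and 3 were higher in all 4 mice (18.4% of all genes). The median ratio of late to spermatocyte-like level was 0.287 for the 72 genes and 0.544 for all genes. The genes lower in all 4 mice were 26 of 34 complex I subunits, 4 of 4 assembly factors, 7 of 8 complex III subunits, 9 of 12 complex IV subunits and 8 of 14 ATP synthase subunits. With the WT mice alone, 62 of 75 genes were lower in both (55.4% of all genes), and with the Ctcf-cKO mice alone also 62 of 75 (40.5% of all genes). The highest mean among the 4 germ-like classes lay in the spermatocyte-like class for 56 of the 72 (40% of all 4952 genes), in the early class for 7 (13.4%), in the mid class for 6 (30%) and in the late class for 3 (16.5%). The remaining members of the 89 were too low in at least 1 library for this comparison. ATP5L (5, 1, 0 and 0 counts over all barcodes) and COX7C (28, 9, 4 and 0 counts), which both encode general subunits, were nearly missing from the tables, so their levels are uncertain.

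The 5 smallest ratios belonged to a pair of testis isoforms and to subunits of complexes I and III. COX7B2 had a ratio of mean levels of 0.0750 and COX6B2 of 0.0930. UQCRC2, a core subunit of complex III, was at 112, 105, 150 and 163 CPM in spermatocyte-like and at 7.58, 0, 33.8 and 0 CPM in late spermatid-like cells (ratio 0.0780). NDUFS1, which carries iron-sulfur clusters of complex I, was at 168, 80.8, 83.3 and 147 CPM and then at 1.26, 0, 0 and 36.8 CPM (ratio 0.0794). NDUFB2, an accessory subunit of complex I, was at 149, 133, 172 and 81.7 CPM and then at 5.05, 0, 30.4 and 13.8 CPM (ratio 0.0918). In each of these genes no late value reached the spermatocyte-like value of any mouse.

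A few members kept or exceeded their level. ATP5MPL, a small subunit of ATP synthase, was at 56.0, 86.8, 178 and 81.7 CPM in spermatocyte-like and at 222, 194, 240 and 354 CPM in late spermatid-like cells (ratio 2.51). NDUFA13, a complex I subunit also known as GRIM19, was at 243, 184, 183 and 114 CPM and then at 388, 347, 277 and 322 CPM (ratio 1.84). ATP5G1, one of the genes of the c ring of ATP synthase, was at 37.3, 36.3, 88.9 and 114 CPM and then at 69.5, 64.8, 128 and 120 CPM (ratio 1.38). These 3 were higher in late spermatid-like cells in all 4 mice, with no overlap between the classes for ATP5MPL and NDUFA13. NDUFB3 (ratio 0.938) had 0 counts in the late spermatid-like cells of both WT mice, and COX7A2 (0.928) was at 286, 245, 172 and 262 CPM in late spermatid-like cells.

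**Figure D4:**
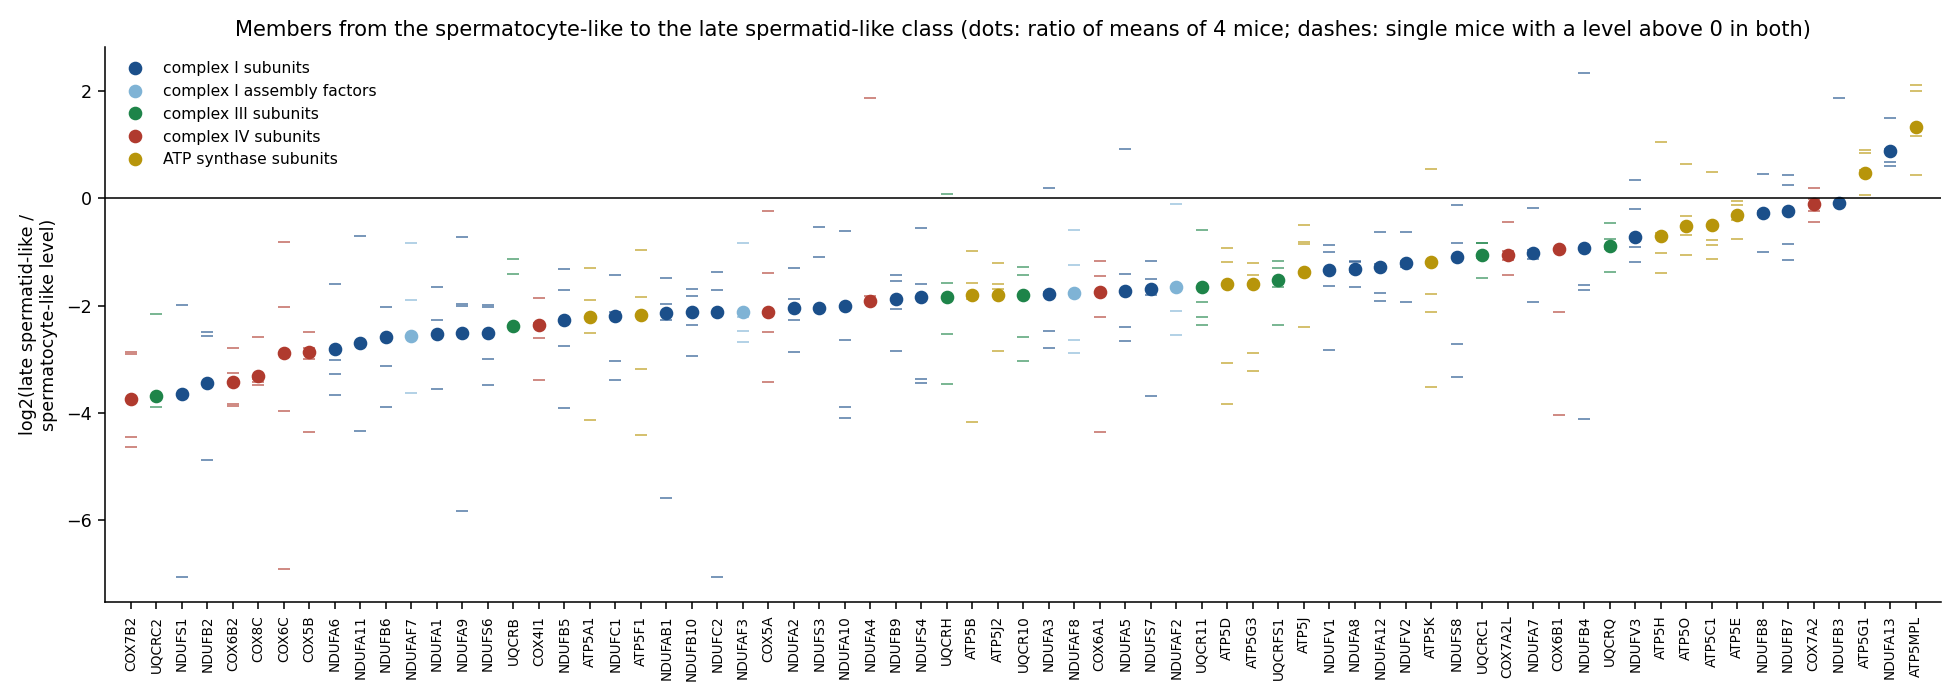
Log2 ratio of the late spermatid-like to the spermatocyte-like level for the 72 genes with at least 20 counts in every mouse, ordered by the ratio; dots are ratios of means over 4 mice, coloured by complex, and dashes are single mice with a level above 0 in both classes, so mice at 0 are not drawn, and 1 gene is left out. COX7B2 (ratio 0.0750) is at the low end and ATP5MPL (2.51), NDUFA13 (1.84) and ATP5G1 (1.38) are at the high end.

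The genes with the highest mean level over the 4 mice differed by class, and single mice did not always keep the order of the means. By the mean, UQCRQ, a small complex III subunit, led the early (235, 513, 267 and 722 CPM), mid (552, 497, 495 and 654 CPM) and late spermatid-like classes (551, 500, 378 and 336 CPM). In the early class COX8C led in WT 1 (353 CPM), NDUFA7 in Ctcf-cKO 1 (695 CPM) and ATP5B in Ctcf-cKO 3 (794 CPM). In the mid class COX8C led in WT 1 (652 CPM), and in the late class ATP5MPL led in Ctcf-cKO 3 (354 CPM). COX4I1, the ubiquitous isoform of subunit 4 of complex IV, led spermatocyte-like cells by the mean (803, 779, 1072 and 1258 CPM), followed by UQCRQ and COX8C. It was highest in both Ctcf-cKO mice only. In WT 1 UQCRQ (1055 CPM), COX8C (887 CPM) and COX6B2 (868 CPM) were above it, and in WT 2 COX8C (830 CPM) was. COX6B2 and ATP5B followed UQCRQ in the early class, COX6B2 and NDUFA7 in the mid class, and ATP5E (387, 389, 264 and 322 CPM) and NDUFA13 in the late class. In somatic-like cells COX6A1 (1187, 576, 1093 and 861 CPM), COX4I1 and ATP5G3 were highest, and in Leydig-like cells COX6A1 reached 2906 CPM in WT 1, 1879 in Ctcf-cKO 1 and 1187 in Ctcf-cKO 3. The values of UQCRQ, ATP5E and NDUFA13 in the late class overlap each other, but UQCRQ was above both others in every mouse, and the order of ATP5E and NDUFA13 differed between mice.

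The X chromosome is silenced during meiosis, and its 3 members are described for that reason. Their summed level was 261, 65, 394 and 278 CPM in spermatocyte-like cells and 6, 5, 98 and 106 CPM in late spermatid-like cells, where the WT mice had 6 counts together and the Ctcf-cKO mice 52. The ratio of Ctcf-cKO to WT was 17.0 (exact 95% interval 7.31 to 48.5 from the counts). NDUFA1, an accessory subunit of complex I, held 34 of the 52 counts of the Ctcf-cKO mice and 1 of the 6 counts of the WT mice. It was at 0, 4.63, 77.7 and 50.6 CPM in late spermatid-like cells, at 396 CPM in the Leydig-like cells of WT 1 and 558.8 and 412.4 CPM in those of Ctcf-cKO 1 and Ctcf-cKO 3, and at 0, 35.6, 79.6 and 81.5 CPM in free RNA. The groups of NDUFA1 do not overlap in either the late class or the free RNA.

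By their means over the 4 mice, the other pathway genes named here were lower in the late than in the spermatocyte-like class, except SLC25A4 and TFAM. TFAM, described further below, had means of 438 CPM in the spermatocyte-like and 1248 CPM in the late class. In the late class SLC25A4 was at 13.9, 0, 118 and 87.4 CPM, higher than in the spermatocyte-like class in every mouse but WT 2. Testis cytochrome c (CYCT) was at 271, 226, 183 and 261 CPM in spermatocyte-like and at 3.79, 37.0, 23.7 and 9.20 CPM in late spermatid-like cells, while somatic cytochrome c (CYCS) was at 0, 8.08, 0 and 49.0 CPM in the former. Of the ADP/ATP carriers, the germ cell form SLC25A31 was at 261, 129, 33.3 and 114 CPM in spermatocyte-like cells. The somatic forms SLC25A4 (0, 8.08, 61.1 and 65.4 CPM) and SLC25A5 (0, 12.1, 222 and 163 CPM) were there above 12.1 CPM in the Ctcf-cKO mice only. Means over the 4 mice in spermatocyte-like and late spermatid-like cells were 33.6 and 54.9 CPM for SLC25A4, 99.4 and 52.2 CPM for SLC25A5 and 135 and 7.22 CPM for SLC25A31. SDHA, the flavoprotein of complex II, was at 607, 137, 389 and 457 CPM in spermatocyte-like and at 1.26, 0, 47.3 and 69.0 CPM in late spermatid-like cells. Means of the other complex II genes over the 4 mice were 115 and 49.0 CPM for SDHB, 133 and 36.0 CPM for SDHC and 136 and 32.9 CPM for SDHD in the same 2 classes.

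To ask whether loss of Ctcf changed these genes within a class, sums per mouse were compared between Ctcf-cKO and WT with the quasi-likelihood test of edgeR over all genes (adjusted p under 0.05, Benjamini-Hochberg). Of the nuclear encoded oxidative phosphorylation genes, 10 rose in late spermatid-like cells, and none passed the test in any of the other 4 classes. In late spermatid-like cells 50 of the 89 had enough counts, 10 rose and none fell, while 13.2% of the 3054 genes tested rose and 4.55% fell. Their median log2 fold change was 0.75 against 0.04 over all genes. Both Ctcf-cKO mice were above both WT mice for 29 of the 50 (33.5% of all genes) and below for 6 (21.6%). A gene could enter the test through one genotype alone, so these counts describe the genes tested and not all 89. The summed share of the 89 genes was higher in both mutants than in either WT mouse, going from a mean of 0.485% (SD 0.0134, n = 2) to one of 0.748% (SD 0.0983, n = 2), with no test since the genes were chosen with results known.

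The 10 genes were 4 of ATP synthase, 3 of complex I and 3 of complex IV. COX6A1, the general isoform of subunit 6A of complex IV, was at 24.0, 55.5, 216 and 313 CPM (log2 fold change 2.84 ± 0.50 SE, edgeR adjusted p = 2.24e-05). ATP5G3, a further c ring gene, was at 19.0, 18.5, 169 and 212 CPM (3.24 ± 0.58, edgeR adjusted p = 3.03e-05). ATP5D, the delta subunit of ATP synthase, was at 17.7, 27.8, 149 and 207 CPM (2.99 ± 0.59, edgeR adjusted p = 0.00013). In these 3 genes each Ctcf-cKO mouse was at least 3 times above the higher WT mouse. COX6C, a small complex IV subunit, was at 3.79, 13.9, 43.9 and 92.0 CPM (3.16 ± 0.95, edgeR adjusted p = 0.0133). NDUFC2 had 1, 0, 26 and 22 counts and NDUFA1 had 0, 1, 23 and 11 counts, so their fitted folds are not printed. The ratio of Ctcf-cKO to WT from the summed counts was 94.2 for NDUFC2 (exact 95% interval 16.1 to 3798) and 66.7 for NDUFA1 (11.2 to 2713), at edgeR adjusted p of 3.33e-05 and 0.000615. ATP5F1 (2.33), NDUFC1 (1.76), ATP5A1 (1.56) and COX4I1 (1.29) rose with smaller log2 fold changes at adjusted p from 0.00674 to 0.0421. When each mouse was left out in turn, ATP5D, ATP5G3, COX6A1 and NDUFC2 passed every time, and the number of genes that passed was between 4 (without Ctcf-cKO 3) and 10 (without WT 2, of which UQCRQ fell), with 6 without WT 1 and 7 without Ctcf-cKO 1. DESeq2 called 6 of the 10, and COX4I1, ATP5A1, COX6C and NDUFC1 were called neither with DESeq2 nor without a filter on low values. Counts in WT 1 and WT 2 were low for ATP5D (14 and 6), ATP5G3 (15 and 4), ATP5F1 (15 and 7), NDUFC1 (26 and 8) and COX6C (3 and 3). These genes, NDUFC2 and NDUFA1 could enter the test through the Ctcf-cKO mice alone, where they are high.

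**Figure D5:**
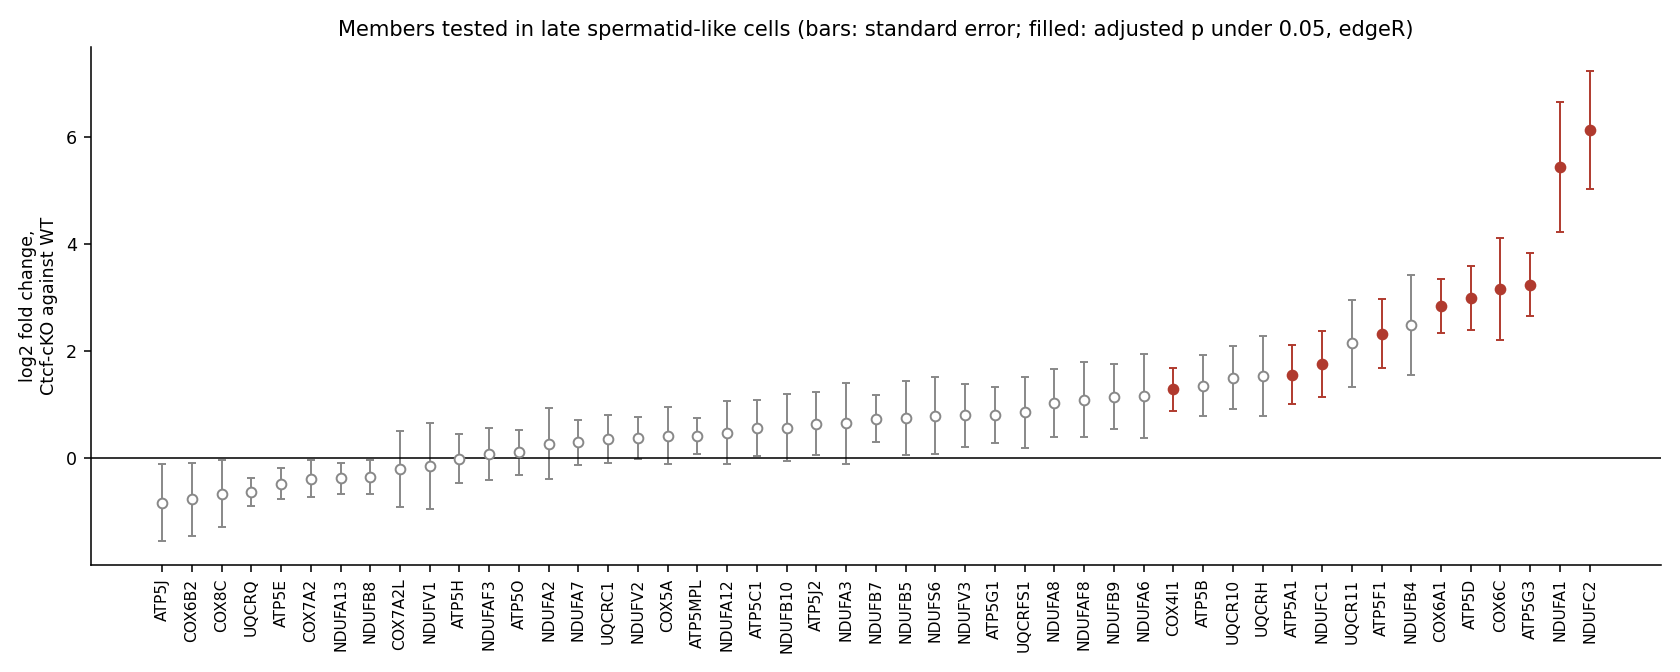
Log2 fold change of Ctcf-cKO against WT with its standard error for the 50 genes tested in late spermatid-like cells but 1, in order of the change; filled points passed an adjusted p of 0.05 in edgeR. The 10 filled points are all above 0, and the lowest values are those of ATP5J (-0.82), COX6B2 (-0.76) and COX8C (-0.66), which did not pass.

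Late spermatid-like cells of the Ctcf-cKO mice also held more RNA of other cell types. The Leydig markers are given above. The 16 Sertoli markers in the tables summed to 74.5, 157, 1977 and 2152 CPM in this class (11 of 16 higher in both Ctcf-cKO mice, SOX9 and FSHR at 0), the 14 macrophage markers to 143, 208, 2078 and 2571 CPM (12 of 14 higher), and the 4 red blood cell markers to 2.53, 0, 7860 and 1361 CPM (4 of 4 higher). The 12 fibroblast or peritubular markers summed to 8.84, 64.8, 1108 and 773 CPM (7 of 12 higher, ACTA2 and TAGLN at 0). Of the 10 genes that rose, 5 were higher in the free RNA of both Ctcf-cKO mice (ATP5A1, ATP5F1, ATP5G3, NDUFA1 and NDUFC2), 4 overlapped (ATP5D, COX4I1, COX6A1 and COX6C) and NDUFC1 was lower, while 26% of all genes were higher and 26.5% lower there. Of the other 40 genes tested, 11 were higher and 13 lower in the free RNA. With the free RNA of each library subtracted, 8 of the 10 passed. The barcodes taken as free RNA were unlike between the libraries, and no doublet caller was run. This step may therefore leave RNA of other cell types in place. The part of the other cell types in the result was not tested.

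The members with the highest levels in the late class lay lower in the Ctcf-cKO mice and did not pass the test. UQCRQ was at 551, 500, 378 and 336 CPM (log2 fold change -0.62 ± 0.26, edgeR adjusted p = 0.0926), ATP5E at 387, 389, 264 and 322 CPM (-0.47 ± 0.29, adjusted p = 0.297) and NDUFA13 at 388, 347, 277 and 322 CPM (-0.37 ± 0.29, adjusted p = 0.447). COX6B2 (-0.76 ± 0.68, edgeR adjusted p = 0.51) and COX8C (-0.66 ± 0.62, adjusted p = 0.541) did not pass either. In each of these 5 genes both Ctcf-cKO mice were below both WT mice. COX6B1, COX7B and COX8A were too low to be tested, with 2, 0 and 0 counts in WT and 14, 7 and 12 counts in Ctcf-cKO mice.

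In spermatocyte-like cells 0 of 66 genes tested passed with edgeR and 0 with DESeq2, while 1.81% of the 3474 genes did with edgeR, and 4 of the 66 had an unadjusted p under 0.05. The median log2 fold change was 0.39 against -0.04 over all genes. Both Ctcf-cKO mice were above both WT mice for 23 of the 66 (17.7% of all genes) and below for 10 (26.7%). ATP5G3 had the smallest adjusted p at 177, 137, 456 and 490 CPM (1.69 ± 0.52, edgeR adjusted p = 0.208). NDUFV3 (1.97 ± 0.79), NDUFA3 (1.84 ± 0.69), UQCR11 (1.53 ± 0.79) and ATP5G1 (1.51 ± 0.94) had the other large positive values without overlap. COX5A, a general subunit of complex IV, was at 681, 571, 294 and 131 CPM (-1.39 ± 0.56, edgeR adjusted p = 0.422) and ATP5J at 252, 141, 83.3 and 32.7 CPM (-1.49 ± 0.82, adjusted p = 0.648). COX7B2 (-0.88 ± 0.56, edgeR adjusted p = 0.705) and COX8C (-0.84 ± 0.51, adjusted p = 0.693) were lower in both Ctcf-cKO mice without passing, and COX6B2 overlapped (-0.36 ± 0.47). WT 1 gave 6 cells to the spermatocyte-like class.

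In early spermatid-like cells 11 genes were deep enough and 0 passed with edgeR (0.132% of the 759 genes tested) or DESeq2, although 5 had an unadjusted p under 0.05. Both Ctcf-cKO mice were above both WT mice for 5 of the 11 (23.3% of all genes) and below for 0 (29%). ATP5B, the catalytic beta subunit of ATP synthase, was at 58.8, 180, 508 and 794 CPM (2.36 ± 0.68, edgeR adjusted p = 0.245), and ATP5A1, its alpha subunit, at 88.3, 79.4, 374 and 289 CPM (2.11 ± 0.73, adjusted p = 0.315). UQCR10 (1.92 ± 0.77), NDUFV2 (1.73 ± 0.64) and COX6B2 (1.60 ± 0.61) were also higher in both Ctcf-cKO mice. WT 1 gave 8 cells to this class.

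In mid spermatid-like cells 0 of 73 genes passed with edgeR or DESeq2 (0% and 11 of all 6574 genes), with 2 of the 73 at an unadjusted p under 0.05. The median log2 fold change was 0.10 against -0.06. Both Ctcf-cKO mice were above both WT mice for 23 of the 73 (16.9% of all genes) and below for 5 (14.9%). NDUFA1 (0, 16.5, 71.4 and 43.0 CPM) and ATP5G3 (24.0, 49.4, 145 and 112 CPM, 1.67 ± 0.61, edgeR adjusted p = 0.999) were higher and ATP5J (189, 83.5, 59.9 and 51.6 CPM, -1.28 ± 0.54, adjusted p = 0.999) was lower in both Ctcf-cKO mice. COX6B1 (1.33 ± 0.83) was higher without overlap, as were NDUFAF5 (1.67 ± 1.06) and NDUFS3 (1.34 ± 0.89), and NDUFAB1 (-1.32 ± 1.04), ATP5C1 (-0.91 ± 0.61), NDUFB8 (-0.43 ± 0.41) and COX7A2 (-0.39 ± 0.43) were lower. The Leydig markers summed to 94.6, 244, 3285 and 852 CPM in this class. The testis isoforms overlapped between genotypes, with COX6B2 at -0.21 ± 0.40, COX7B2 at -0.14 ± 0.46 and COX8C at -0.53 ± 0.45.

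In somatic-like cells 0 of 73 genes passed with edgeR or DESeq2 (0% and 5 of all 4238 genes), with 4 of the 73 at an unadjusted p under 0.05. The median log2 fold change was 0.30 against 0.15. Both Ctcf-cKO mice were above both WT mice for 21 of the 73 (20.9% of all genes) and below for 9 (17.7%). COX7B was at 10.5, 0, 93.6 and 128 CPM (3.98 ± 1.17, edgeR adjusted p = 0.813), on 1 and 0 counts in WT. NDUFA11 (2.21 ± 1.11), ATP5MPL (2.17 ± 0.92) and NDUFAF2 (1.73 ± 1.06) were higher, and COX7B2 (-1.31 ± 1.01), NDUFA9 (-0.74 ± 0.71), COX7A2 (-0.60 ± 0.49), NDUFS7 (-0.54 ± 0.62) and COX6C (-0.41 ± 0.47) lower in both Ctcf-cKO mice. The WT mice gave 12 and 8 somatic-like cells and the Ctcf-cKO mice 91 and 122, of different types, and leaving out WT 1 let 10 genes pass and leaving out WT 2 let 4 pass.

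Whether the genotype difference itself changed between classes was tested with an interaction term in edgeR. Between late and mid spermatid-like cells 0 of 74 genes passed (smallest edgeR adjusted p = 0.538), as did 0% of the 6353 genes tested, with 3 of the 74 at an unadjusted p under 0.05. The somatic-like class held 12 and 8 cells of WT 1 and WT 2, among them the 2 Leydig-like cells of WT 2 that were low in Leydig markers. Between late spermatid-like and somatic-like cells 3 of 74 passed, and 204 of all 5882 genes (3.47%). They were COX6A1 (log2 difference 2.31 ± 0.59, edgeR adjusted p = 0.0151), NDUFC2 (adjusted p = 0.0232) and NDUFA1 (adjusted p = 0.027), each with a larger Ctcf-cKO to WT ratio in the late class. All 3 passed without WT 2, and none of them passed without WT 1, Ctcf-cKO 1 or Ctcf-cKO 3.

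Of the related lists in late spermatid-like cells, 2 of 3 complex II genes tested rose (SDHA and SDHC; 13.2% of all genes tested in this class rose and 4.55% fell), as did both ADP/ATP carriers tested (SLC25A4 at 13.9, 0, 118 and 87.4 CPM and SLC25A5 at 0, 13.9, 84.5 and 110 CPM). Of the assembly factors of complexes II to V, 3 of 7 rose: COX14, COA5 and COX17. WT 1 and WT 2 held 1 and 0 counts of SDHA, 0 and 1 of SDHC, 0 and 1 of COX14 and 0 and 3 of SLC25A5. Such genes could enter the test through the Ctcf-cKO mice alone, so the numbers that rose describe only the genes tested. All 6 mitochondrially encoded genes tested rose, among them MT-ND4 at 36.6, 134, 3555 and 4346 CPM, in a class whose WT cells held few of these transcripts. TFAM, a gene known for a packaging and transcription factor of mitochondrial DNA, was the 1 regulator deep enough to be tested. It fell (1596, 1457, 997 and 943 CPM, log2 fold change -0.72 ± 0.20, edgeR adjusted p = 0.00708). Counts per gene do not separate its transcripts, so which product they encode was not examined. In the other 4 classes no gene of these lists passed.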

How the data were processed

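Single-cell 3′ libraries (ddSEQ droplets, SureCell kit, NextSeq) of 1 mouse each were aligned by the authors to GRCm38 with annotation release 98, and the deposited tables hold whole-number counts per gene and barcode, not normalized. The study's methods set limits of 200 to 7000 genes and at most 10% mitochondrial counts. These limits were kept here, and a barcode total of at least 3 times the commonest total was added, giving 944 cells. They were clustered (R 4.3.3, Seurat 5.3.0, Harmony, 15 components, resolution 0.9) without the members, classes were named from marker genes, and spermatid clusters were put in order by diffusion pseudotime (scanpy 1.11.5). No doublet caller was run. Sums per class were taken within each mouse and scaled to CPM. Genotypes were compared over 2 mice against 2 with edgeR 4.0.16 (TMM, filterByExpr, glmQLFTest, Benjamini-Hochberg at 0.05) on all genes. DESeq2 1.42.0 and a Wilcoxon test over cells were alternatives. The outcome of a check of edgeR on simulated counts is not given here, so it does not back the calls. The 2 mice of a group are separate animals. Members and gene lists were chosen with earlier results of these data known. Named genes were the isoform pairs, the 3 highest members of a class, the 5 largest and 5 smallest late ratios, up to 5 members rising and falling in a comparison without overlap, members called in interactions, and cytochrome c, carrier and complex II genes, and other names were chosen after their values were seen. ATP5G2, COX4I2, COX8B and protein sequences were not analysed here, and 1 member that the rule names is not reported here.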

Additional observations from a re-analysis of the deposited data

Results flagged for a closer look

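The difference between Ctcf-cKO and WT itself differed between late spermatid-like and somatic-like cells for 3 members, by an edgeR interaction test over 5882 genes. The log2 difference was 2.31 for COX6A1, 4.39 for NDUFA1 and 5.22 for NDUFC2, at edgeR adjusted p of 0.0151, 0.027 and 0.0232. NDUFA1 and NDUFC2 had 1 count each in the late spermatid-like cells of both WT mice together, so the size of their difference depends on the prior count of the fit. The WT mice gave 12 and 8 somatic-like cells to this test.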

How the results depend on the processing

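The number of oxidative phosphorylation genes (members) called in late spermatid-like cells was 10. It was 6 with DESeq2, 6 without a filter on low values, 3 where each of the 4 sums had to reach 10 counts, 4 with as many barcodes as the study kept, 6 with thinned sums and 2, both lower, with a Wilcoxon test over cells, which counts the cells of 2 mice as replicates, and it ranged from 4 to 10 when 1 mouse was left out. Library totals in place of TMM moved the median log2 fold change of all genes in this class from 0.04 to 0.19 and that of the members from 0.75 to 0.91. In somatic-like cells the number was 0, and from 0 to 10 with 1 mouse left out. For the interaction of late spermatid-like with somatic-like cells it was 3, and 6 with RLE factors, 9 with library totals, 1 without a filter, 9 with counts divided by 4, and from 0 to 11 with 1 mouse left out. In the other classes and the other interaction it was 0 under each alternative run. The Ctcf-cKO minus WT difference in summed share, in percent of counts, was 0.442 in early spermatid-like cells with as many barcodes as the study kept (0.627 in the report), 0.285 in mid spermatid-like cells with cluster 2 alone (0.137), 0.348 in late spermatid-like cells with the unnamed cluster (0.262) and 0.454 in somatic-like cells of at least 5 times the plateau (0.219). Members named in classes without a call changed sign in places. In mid spermatid-like cells, thinned sums gave log2 fold changes of -0.00421 for ATP5G3, 0.012 for COX6B2, 0.19 for COX7B2 and 0.27 for NDUFB8, COX7B2 was at 0.21 with counts divided by 4, 0.16 with cluster 2 alone and 0.62 over cells, and leaving out 1 mouse gave -0.59 to 0.0015 for COX6B2 and -0.82 to 0.16 for COX7B2. In somatic-like cells COX6C was at 0.071 and NDUFS7 at 0.36 with cells of at least 5 times the plateau, and leaving out 1 mouse gave -0.68 to 0.33 for COX6C. The interaction of NDUFC2 ranged from -1.24 to 5.54 with 1 mouse left out. The cause was not tested. The number of members lower in late than in spermatocyte-like cells was 54 of 72, and 52 to 60 of 72 to 74 under each alternative run with mice of both genotypes. The alternatives with 5 times the plateau, counts divided by 4, single clusters and the unnamed cluster, and those of the interactions, were chosen after seeing the data. With 10 counts required in each of the 4 sums, or counts divided by 4, no member was left in the early class. No paired analysis was possible because the groups share only replicate number 1. The spermatocyte-like class is limited by WT 1 (6 cells), the early class by WT 1 (8 cells) and the somatic-like class by the WT mice (12 and 8 cells).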

Other observations

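The cluster without a name held the 89 genes at 0.266% and 0.420% of counts in WT 1 and WT 2 and at 0.809% and 1.02% in Ctcf-cKO 1 and Ctcf-cKO 3. The testis isoforms took 97.0%, 100%, 48.0% and 28.6% of the counts of the 3 complex IV pairs there, in the same order. Both measures separate the genotypes in these cells, which carry elongating spermatid and Sertoli markers together, and neither was tested.

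Other tissue isoforms were low. NDUFA4, now counted to complex IV, was at 317 CPM in the Leydig-like cells of WT 1 and at 178 and 169 CPM in those of Ctcf-cKO 1 and Ctcf-cKO 3, and it was at 0, 0, 20.3 and 13.8 CPM in late spermatid-like cells. Its isoform NDUFA4L2 was at 18.7, 30.3, 27.8 and 65.4 CPM in spermatocyte-like cells. COX7A1, the form of heart and skeletal muscle, had 4, 3, 20 and 22 counts over all barcodes, and COX6A2, also a muscle form, had 20, 24, 8 and 3 counts. The processed pseudogenes COX6C2, NDUFS6B and NDUFA11B had 225, 109 and 25 counts over the 4 libraries. They are near copies of COX6C, NDUFS6 and NDUFA11, so their values are uncertain.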
